A study of Mus musculus with 4 samples.

Results

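The transmembrane mucins are membrane-anchored glycoproteins of the epithelial surface, and 6 of their genes (Muc1, Muc3, Muc3a, Muc4, Muc13 and Muc20) were followed here in irradiated mouse intestinal organoids given the bromodomain inhibitor SGC-CBP30 or vehicle. The 6 were chosen by symbol, all 6 were found, and they stand among 26144 genes with at least 1 count. Each library came from wild type C57BL/6 organoids, from mice 8-12 weeks old, that had received 8 Gy, and RNA was taken 36 hours later. The 2 vehicle and 2 SGC-CBP30 libraries therefore share the irradiation, and no unirradiated group was analysed here. SGC-CBP30 binds the acetyl-lysine reading domains of the acetyltransferases CBP and p300. The treatment label of SGC-CBP30 replicate 2 reads SGC-CBP31, and its title placed it in the group. Results are also given without it. No label says that the replicates are separate cultures or mice, so the p-values rest on a spread between libraries that may be technical only.

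A transmembrane mucin carries a long extracellular domain rich in serine, threonine and proline, to which O-linked glycan chains are attached, followed by a single membrane span and a cytoplasmic tail. Packed on microvilli, these molecules make up much of the glycocalyx, the glycan coat that keeps bacteria and digestive enzymes away from the cell membrane. In the gut, Muc13 and the Muc3 and Muc17 type mucins cover enterocytes, whereas gel-forming mucins such as Muc2 are secreted by goblet cells. Several members also signal, Muc4 through the receptor ErbB2 and Muc20 through the receptor MET.

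The libraries held 16433117 to 18087250 counts, and epithelial markers such as Epcam and Cdh1 were expressed as the label requires. Of 14684 genes tested, 30.0% were called between the groups (edgeR quasi-likelihood F test, adjusted p under 0.05 after Benjamini-Hochberg), 2004 higher and 2397 lower. Scaling by library totals gave 2907 higher and 1924 lower. The number called was 2899 without vehicle replicate 2 and 2996 without vehicle replicate 1. Of 9 immune markers 3 passed the filter on low counts, and the list summed to 10.2 to 11.4 CPM (normalized counts scaled to a library of 1000000) in vehicle and 7.18 to 7.76 CPM in SGC-CBP30 libraries. The 10 stromal and endothelial markers summed to at most 2.55 CPM and 4.64 CPM.

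The summed message of the 6 genes was made almost wholly by Muc13 and Muc3, and these moved in opposite directions. Muc13, Muc3a and Muc4 fell with SGC-CBP30, by 1.43-fold, 1.77-fold and 3.01-fold. Muc3 rose by 1.24-fold in the same test. Muc20 and Muc1 had at most 13 and 3 counts in a library and were not tested. The 4 tested members had at least 198 counts in every library, so none passed the filter through 1 group alone. All 4 were called, beside 30.0% of all genes (16.3% called lower and 13.6% called higher), and in all 4 the groups did not overlap, beside 63.1% of all genes. Their median log2 fold change was -0.67, against 0.0096 over all tested genes. All 4 kept their sign and their side of the threshold without SGC-CBP30 replicate 2, in a fit in which the lone treated library is assumed to vary like the vehicle pair. DESeq2, which called 22.6% of the genes it tested, did not call Muc3 (adjusted p = 0.128), and without SGC-CBP30 replicate 1 its log2 fold change was 0.16.

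**Figure D1:**
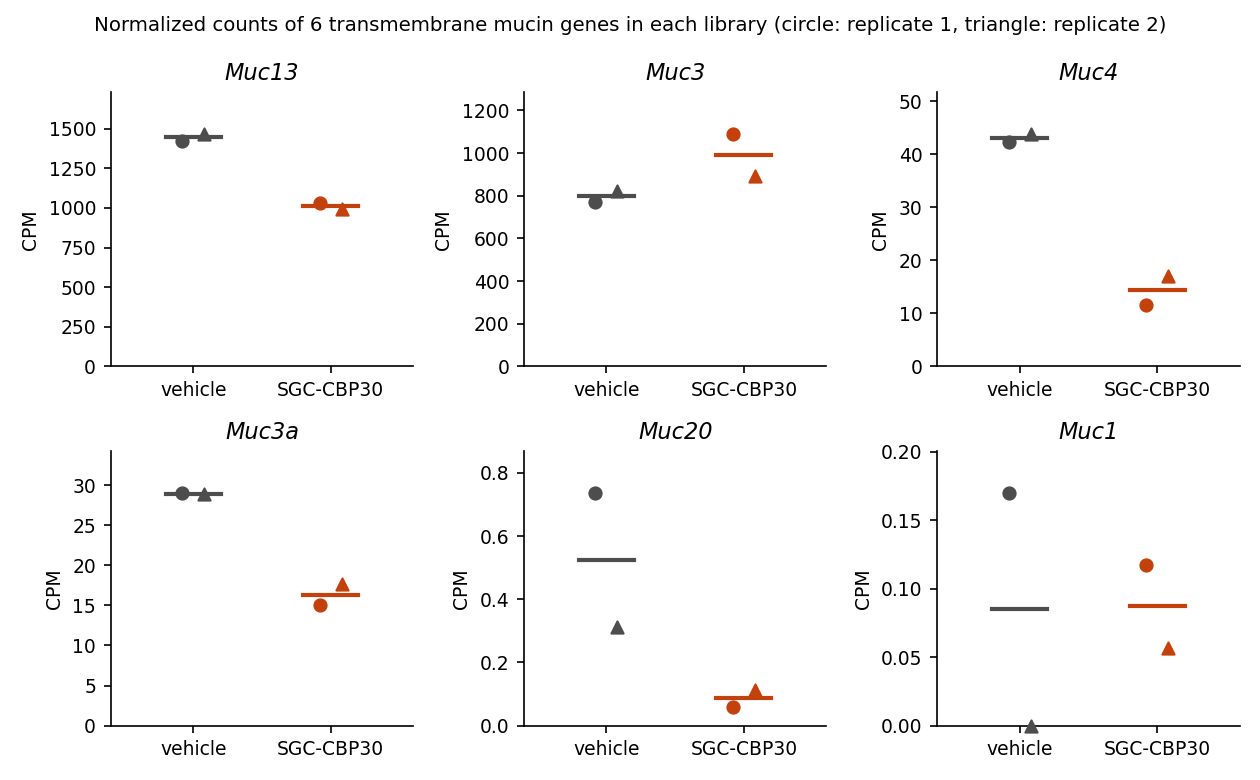
CPM (vertical axes, each from 0 with its own scale) of the 6 genes in each library, by group; circles are replicate 1, triangles replicate 2, and the bar is the mean of 2. Muc13, Muc4 and Muc3a lie lower in both SGC-CBP30 libraries, Muc3 lies higher in both with a wider spread, and Muc20 and Muc1 stay below 1 CPM.

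Muc13 (ENSMUSG00000022824, chromosome 16, 33794037 to 33819934, plus strand, GRCm38), whose product is a small mucin of the enterocyte surface with a cytoplasmic signalling tail, was the most abundant member by mean CPM. The exception by library was SGC-CBP30 replicate 1, where Muc3 had more counts. Muc13 had 25135 and 23414 counts in the vehicle libraries and 17549 and 17450 in the SGC-CBP30 libraries. In normalized units these are 1423 and 1467 CPM against 1032 and 993.9 CPM. Both treated libraries were lower than both vehicle libraries, and within either group the values lay close together. The log2 fold change was -0.51 ± 0.06 (SE), with an edgeR adjusted p of 9.43e-08, and -0.49 without SGC-CBP30 replicate 2. Muc13 ranked 69th of 14684 tested genes by mean level, and 13.8% of tested genes had a lower fold change.

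The coding sequence of Muc13 holds a perfect tandem repeat, the mark of a mucin domain, and its unit is shown because reads from it map to several copies of the same gene. The unit is 81 bases long, and the first 3 copies of a 433-base repeated stretch, in the exon from 33798933 to 33799577, were identical. Copy 1 lies at chr16:33799001-33799081, plus strand, in GENCODE M21 transcripts:
Muc13 repeat unit: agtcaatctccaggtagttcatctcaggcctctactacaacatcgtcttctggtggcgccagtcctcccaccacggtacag
In the longest Muc13 transcript 11.6% of all 100-base windows occur more than once, against 2.31% for Muc4 and 0 for Muc1, Muc3, Muc3a and Muc20. Whether such reads were counted is not given in the sources used here, and the part of these reads in the Muc13 values was not tested. The antisense gene Gm15657 shares 184 exon bases with Muc13, 6.06% of those of Muc13. It had 47 to 93 counts per library, and its log2 fold change of -0.53 ± 0.27 missed the threshold (edgeR adjusted p = 0.144), which it passed without SGC-CBP30 replicate 2 (adjusted p = 0.0266).

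Muc3 (ENSMUSG00000037390, chromosome 5, 137134922 to 137149322, minus strand), a large mucin of the brush border with EGF-like domains beside its membrane span, was the second most abundant by mean CPM. It had 13619 and 13154 counts in the vehicle libraries and 18544 and 15690 in the SGC-CBP30 libraries, or 771.2 and 824.4 CPM against 1090 and 893.6 CPM. The treated libraries were both higher, but they stood further apart from each other than the lower of them stood from the higher vehicle library. The log2 fold change was 0.31 ± 0.08 (edgeR adjusted p = 0.00483). It was 0.45 without SGC-CBP30 replicate 2 and 0.16 without SGC-CBP30 replicate 1, so its size rests on which treated library is used. DESeq2 gave a log2 fold change of 0.31 and did not call it (adjusted p = 0.128), and it is also not past that threshold in the authors' deposited table (log2 fold change 0.315, adjusted p = 0.143).

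The gene model of Muc3 in the table is short for a mucin: its exons add up to 1943 bases, its coding sequence to 1134 bases, and its longest exon to 564 bases, compared with 6928 bases for the longest exon of Muc4. RefSeq draws Muc3 further upstream, to base 137166048, a span that takes in the long noncoding gene Gm3054 (chromosome 5, 137154029 to 137166070, same strand) as annotated by GENCODE. Gm3054 had 636 and 523 counts in vehicle and 635 and 833 in SGC-CBP30 libraries, with the second treated library the highest. Its log2 fold change was 0.30 ± 0.11 (edgeR adjusted p = 0.0376), and it was no longer called in DESeq2 (adjusted p = 0.127) or when vehicle replicate 2 (adjusted p = 0.223) or SGC-CBP30 replicate 2 (adjusted p = 0.491) was left out. Muc3 and Gm3054 did not share their order over the treated libraries: Muc3 was higher in replicate 1 and Gm3054 in replicate 2. The 29.2 and 18.8 Muc3 counts per Gm3054 count in treated libraries enclosed the 21.4 and 25.2 of the vehicle libraries.

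**Figure D2:**
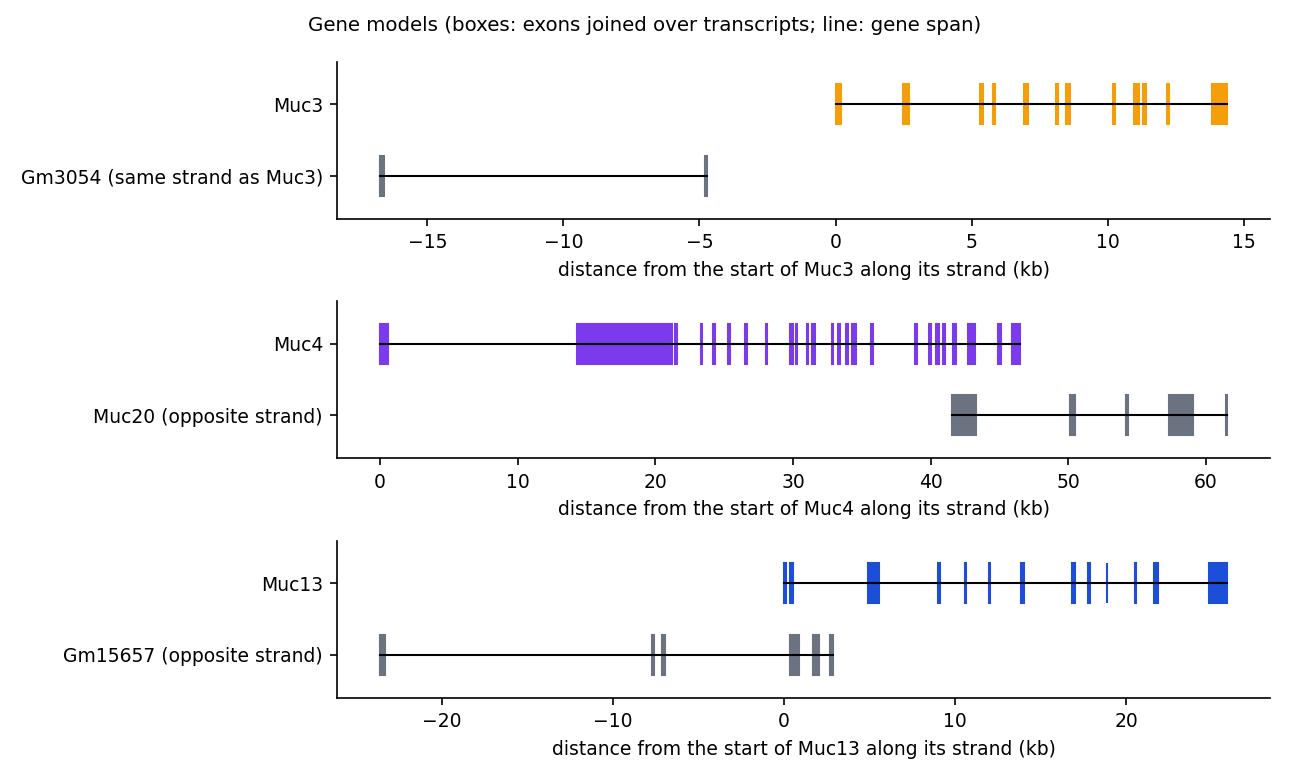
Exons (boxes, joined over all GENCODE M21 transcripts) and gene spans (lines) of Muc3 with Gm3054, Muc4 with Muc20, and Muc13 with Gm15657, against the distance in kilobases from the start of the first-named gene along its strand. Gm3054 lies upstream of Muc3 on the same strand with no shared exon base, whereas Muc4 and Muc20 share exon bases at their 3′ ends on opposite strands.

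Muc3a (ENSMUSG00000094840, chromosome 5, 137208813 to 137212389, minus strand), annotated as a cell surface mucin beside Muc3, fell while Muc3 rose. It had 512 and 461 counts in vehicle and 256 and 309 counts in SGC-CBP30 libraries, or 28.99 and 28.89 CPM against 15.05 and 17.6 CPM. The vehicle libraries were nearly equal and both treated libraries were far lower. The log2 fold change was -0.83 ± 0.12 (edgeR adjusted p = 8.13e-06), and -0.94 without SGC-CBP30 replicate 2. Despite the names, the annotated transcripts of Muc3 and Muc3a share no window of 50 bases, and their longest identical stretch is 10 bases, so no read of 50 bases or more could match both. Muc3 stood at 25.8 and 27.7 times Muc3a per gene length in vehicle and at 70.35 and 49.3 times in SGC-CBP30 libraries, with no overlap between groups. The Muc3a model, like that of Muc3, is short for a mucin, with 654 coding bases. Unlike for Muc3, the RefSeq span of Muc3a is also short, at 3741 bases.

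Muc4 (ENSMUSG00000079620, chromosome 16, 32735886 to 32782391, plus strand), a very large mucin that binds ErbB2, had the largest change of the 4 tested members. It had 748 and 699 counts in vehicle and 198 and 298 in SGC-CBP30 libraries, or 42.36 and 43.81 CPM against 11.64 and 16.97 CPM. Both treated libraries were less than the vehicle libraries by a wide margin. The log2 fold change was -1.59 ± 0.13 (edgeR adjusted p = 1.63e-09), -1.89 without SGC-CBP30 replicate 2, and only 2.38% of tested genes had a lower fold change. Because the gene is long, these counts amount to 3.603 and 3.726 FPKM in vehicle and 0.99 and 1.44 FPKM in SGC-CBP30 libraries (FPKM, counts per kilobase of the deposited gene length and per 1000000 normalized counts).

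Muc20 (ENSMUSG00000035638, chromosome 16, 32777419 to 32797435, minus strand), a small mucin known from kidney and able to bind MET, overlaps the end of Muc4 tail to tail. It had 13 and 5 counts in vehicle and 1 and 2 in SGC-CBP30 libraries, too few for the filter, so it was not tested. The 3 treated counts against 18 vehicle counts give a ratio of 0.162 with a 95% exact binomial interval of 0.0306 to 0.555, which covers counting error only. Muc4 and Muc20 share 627 exon bases on opposite strands, 15.6% of those of Muc20 and 5.33% of those of Muc4. Whether the counting used strand is not given, so reads from the shared bases cannot be assigned to 1 of the genes, and the fall of Muc4 counts moves with the low Muc20 counts; its part in them was not tested.

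Muc1 (ENSMUSG00000042784, chromosome 3, 89229057 to 89233381, plus strand), the classical epithelial membrane mucin of ducts, stomach and colon, had 3 and 0 counts in vehicle and 2 and 1 in SGC-CBP30 libraries. A count of 0 in vehicle replicate 2 allows up to 0.188 CPM, taking 3 counts as the limit, and the highest library had 0.170 CPM. No difference was detectable at this depth. Its neighbour Trim46, on the opposite strand with its 3′ end 796 bases beyond Muc1, encodes a microtubule-organising protein. It had 119 and 121 counts in vehicle and 46 and 28 in SGC-CBP30 libraries and fell by 1.74 ± 0.27 on the log2 scale (edgeR adjusted p = 2.21e-05).

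Per gene length the order of the 6 in vehicle was Muc13, Muc3, Muc3a, Muc4, Muc20 and Muc1. Muc13 averaged 476 ± 10.3 FPKM and Muc3 411 ± 19.4 FPKM (SD, n = 2), and their libraries did not overlap. Muc3a followed at 15.3 ± 0.0380 FPKM and Muc4 at 3.67 ± 0.0872 FPKM. In SGC-CBP30 libraries Muc3 came first at 511 ± 71.5 FPKM (561.0 and 459.9), ahead of Muc13 at 333 ± 8.78 FPKM (339.6 and 327.2). Muc3a then stood at 8.65 ± 0.956 FPKM and Muc4 at 1.22 ± 0.321 FPKM. At the bottom, where no test was run between the genes, Muc20 had 0.183 and 0.0778 FPKM in vehicle where Muc1 had 0.0724 and 0, and 0.0146 and 0.0283 FPKM in SGC-CBP30 libraries where Muc1 had 0.0501 and 0.0243.

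The makeup of the summed message of these 6 genes thus shifted from Muc13 towards Muc3. Their sum overlapped between groups in FPKM but not in CPM. Muc13 made up 52.96% and 52.14% of the summed FPKM of the 6 genes in vehicle libraries and 37.33% and 41.0% in SGC-CBP30 libraries. Muc3 made up 44.87% and 45.8% in vehicle and 61.68% and 57.64% in SGC-CBP30 libraries. The ratio of Muc3 to Muc13, which no scaling between libraries can change, was 0.847 and 0.878 in vehicle and 1.65 and 1.41 in SGC-CBP30 libraries. The sum of the 6 was 884.7 and 926.5 FPKM in vehicle and 909.6 and 797.9 FPKM in SGC-CBP30 libraries, so 1 treated library lay between the vehicle libraries. Without division by length the 6 summed to 2267 to 2365 CPM in vehicle libraries. In SGC-CBP30 libraries they summed to 1922 to 2149 CPM, lower in both and without overlap. With 2 libraries a group an exact permutation test cannot reach 0.05, and none was run on these ratios. The order of Muc3 and Muc13 within a library, the shares and the summed FPKM depend on the deposited length of the partial Muc3 model. The relative shift of the Muc3 to Muc13 ratio between groups does not.

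**Figure D3:**
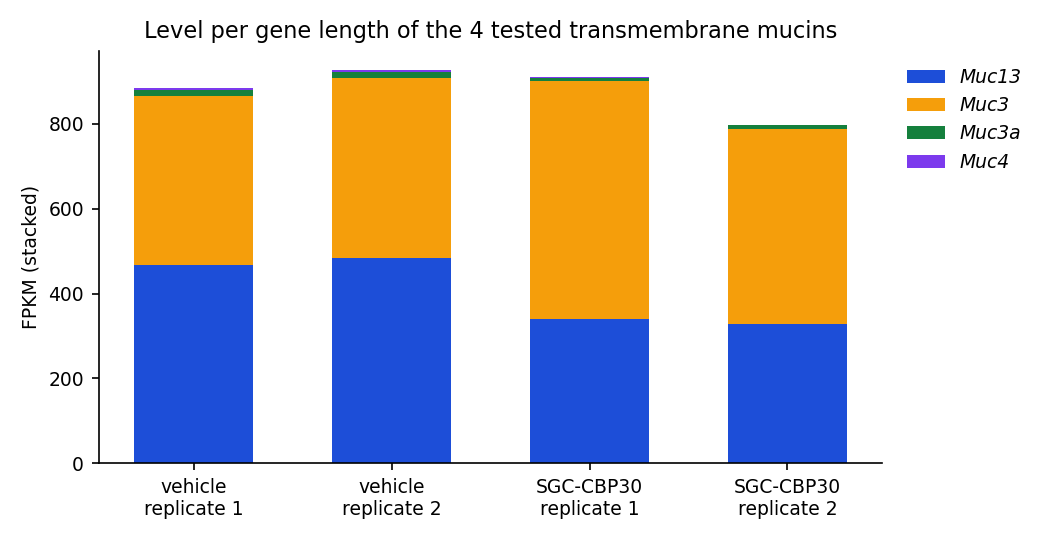
Stacked FPKM of Muc13, Muc3, Muc3a and Muc4 in each of the 4 libraries (vertical axis, from 0). Muc13 is the larger block in both vehicle libraries and Muc3 in both SGC-CBP30 libraries, while the summed height, between 797.9 and 926.5 FPKM, overlaps between groups.

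Markers of the cells that carry these mucins moved too. The 12 enterocyte markers summed to between 45840 and 46070 CPM in vehicle and between 34360 and 36400 CPM in SGC-CBP30 libraries. Much of that drop lay in Sis alone, which averaged 15120 CPM in vehicle and 7284 CPM in SGC-CBP30 libraries. By gene, 7 fell, 1 (Apoa4) rose and 4 (Alpi, Apoa1, Fabp1 and Mttp) were not called. The share called was 66.7%, beside 30.0% of all tested genes. The 12 goblet cell markers summed to between 4586 and 4716 CPM in vehicle and between 4795 and 4841 CPM in SGC-CBP30 libraries. Yet only 1 of them rose, 4 fell and 7 were not called, with a median log2 fold change of -0.12. Their share called was 41.7%. The goblet cell genes called numbered 2 when either vehicle library was left out and 8 when SGC-CBP30 replicate 1 was left out. In bulk RNA, fewer cells of a type and less RNA per cell cannot be told apart, and the part of the enterocyte markers in the fall of Muc13, Muc3a and Muc4 was not tested. Muc3 rose beside them.

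The secreted and other mucins were few. Of 12 listed, 10 had a row in the table and 3 were tested. No row carried the symbol Muc12 or Muc17, so no share or sum given here includes a row of that name. Whether either gene is counted under another symbol was not tested. Muc2, the gel-forming mucin of goblet cells, had 413 ± 5.28 CPM in vehicle and 487 ± 57.5 CPM in SGC-CBP30 libraries (SD, n = 2), with a log2 fold change of 0.24 ± 0.07 (edgeR adjusted p = 0.00822). Leaving out vehicle replicate 1 (adjusted p = 0.0728) or vehicle replicate 2 (adjusted p = 0.114) ended that call, and without SGC-CBP30 replicate 2 the log2 fold change was 0.113 (adjusted p = 0.0453). Mucl3, a membrane-bound mucin-like gene, fell by 1.04 ± 0.29 on the log2 scale from 82 and 76 counts to 44 and 35 (edgeR adjusted p = 0.00731), and leaving out SGC-CBP30 replicate 2 ended that call (adjusted p = 0.0523). Muc6, the gland mucin of the stomach, had 8 to 34 counts and was not called. The 6 transmembrane mucins together stood at 15.1 and 16.1 times Muc2 per gene length in vehicle and at 14.5 and 10.8 times in SGC-CBP30 libraries. Muc16, Muc19 and Mucl1 had no counts in any library.

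Among 10 tested receptor partners and lectins 6 rose, 2 fell and 2 were not called, with a median log2 fold change of 0.20. Calls made up 80% of this list, beside 30.0% of all tested genes (13.6% higher and 16.3% lower). Lgals3, the gene of galectin-3, a lectin that cross-links mucin glycans at the cell surface, rose by 1.08 ± 0.08 on the log2 scale, from 140 to 296 CPM (edgeR adjusted p = 3.47e-09). Named after their values were seen, Erbb2, the receptor partner of Muc4, fell by 0.29 ± 0.06 (adjusted p = 0.00128), though not when vehicle replicate 2 was left out (adjusted p = 0.0617). Met, the receptor partner of Muc20, rose by 0.37 ± 0.09 (edgeR adjusted p = 0.0029), as did Egfr by 0.44 ± 0.08 (edgeR adjusted p = 2.12e-04). Without SGC-CBP30 replicate 2 the counts were 7 and 2, and without vehicle replicate 2 the number called was 5.

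The enzymes that build and cap O-glycan chains were mixed, with 5 of 29 tested higher, 7 lower and 17 not called, a median of -0.01. The share called was 41.4%, beside 30.0% of all tested genes. St3gal1, which caps the core O-glycan with sialic acid, fell by 1.79 ± 0.12 on the log2 scale, from 41.3 to 12.0 CPM (edgeR adjusted p = 1.50e-11). Its relative St3gal4, named after its values were seen, fell by 0.60 ± 0.06 from 715 to 473 CPM. These count as 5 and 8 without SGC-CBP30 replicate 2.

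Of 15 genes of the apical anchors and the microvillus scaffold, 2 rose, 4 fell and 9 were not called, with a median of 0.064. The share called was 40%, beside 30.0% of all tested genes. Pdzk1, a PDZ-domain scaffold that binds the tail of MUC17-type mucins and of apical transporters, fell by 1.501 ± 0.123 on the log2 scale, from 49.45 to 17.49 CPM (edgeR adjusted p = 8.28e-10). The log2 fold change of the microvillus actin bundler gene Vil1, chosen with its values known, was 0.093 ± 0.057 and missed the threshold, which it passed under scaling by library totals (adjusted p = 0.0208) or when SGC-CBP30 replicate 2 was left out (adjusted p = 3.74e-04). Leaving out that library gave 4 anchor genes higher and 4 lower, and library totals raised the number called to 10.

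Of 10 proteases that cleave or shed surface proteins 2 rose, 2 fell and 6 were not called, with a median of 0.076. The share called was 40%, beside 30.0% of all tested genes. Both meprin subunits, metalloproteases of the brush border, fell: Mep1a by 1.00 ± 0.08 on the log2 scale (edgeR adjusted p = 4.33e-10) and Mep1b by 0.43 ± 0.06 (edgeR adjusted p = 1.52e-06). Adam17, a sheddase of membrane proteins and also chosen with its values known, was not called at 0.12 ± 0.08 on the log2 scale (edgeR adjusted p = 0.305). The 2 that rose were Adam10 by 0.25 ± 0.07 (edgeR adjusted p = 0.00919) and Mmp14 by 0.35 ± 0.09 (edgeR adjusted p = 0.00665). Without vehicle replicate 1 the log2 fold change of Adam10 was 0.162. The counts were again 2 and 2 without SGC-CBP30 replicate 2. Without vehicle replicate 1 the number called was 2.

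Of 26 tested regulators reported for mucin genes 7 rose, 8 fell and 11 were not called, with a median of 0.013. The share called was 57.7%, beside 30.0% of all tested genes. Hnf4g, an enterocyte nuclear receptor gene, fell by 0.72 ± 0.06 on the log2 scale, from 527 to 320 CPM (edgeR adjusted p = 9.91e-10), and the epithelial ETS factor gene Ehf fell by 0.68 ± 0.08 (edgeR adjusted p = 2.34e-07). Hnf4a, the close relative of Hnf4g and chosen with its values known, was not called at 0.14 ± 0.06 (edgeR adjusted p = 0.0708), though it passed under scaling by library totals (adjusted p = 0.00433), when SGC-CBP30 replicate 1 was left out (adjusted p = 0.0399) and when SGC-CBP30 replicate 2 was left out (adjusted p = 3.88e-04). Stat3, likewise chosen, was not called at -0.088 ± 0.067. The counts were 6 and 7 without SGC-CBP30 replicate 2, the number called was 8 without vehicle replicate 1, and DESeq2 called 9.

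**Figure D4:**
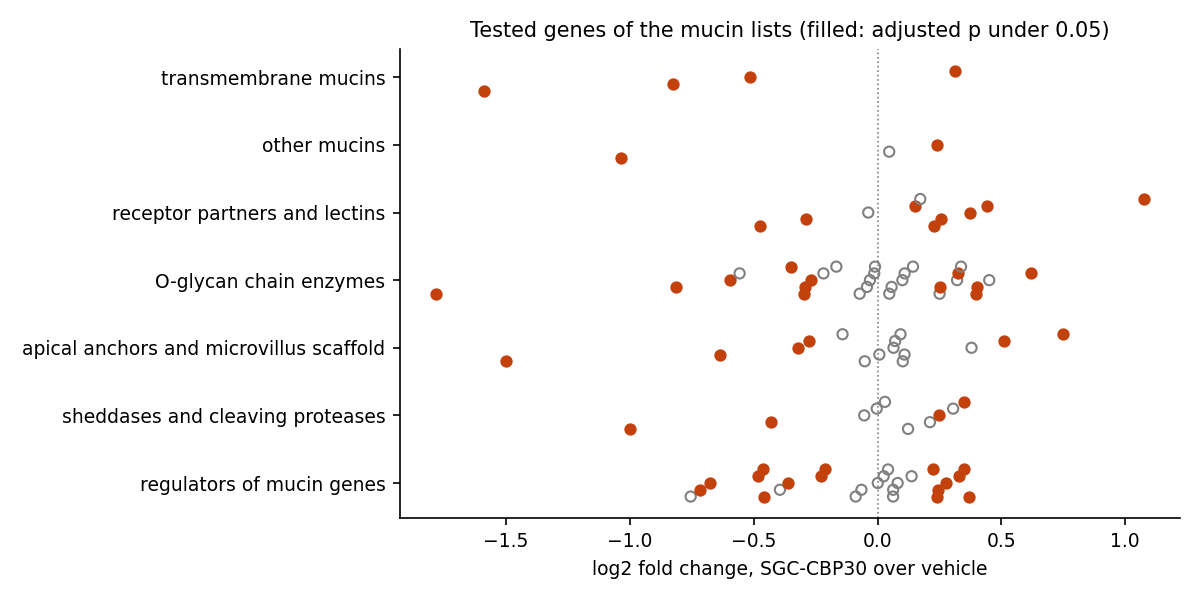
Log2 fold change, SGC-CBP30 minus vehicle (horizontal axis), for each tested gene of the mucins and of 6 lists around them, 1 point a gene, filled where the edgeR adjusted p is under 0.05; the vertical offset within a list only separates points. Each list of 10 or more tested genes spreads to both sides of 0, with St3gal1, Pdzk1 and Mep1a at the low ends and Lgals3 at the high end.

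The 250 bases upstream of the transcript start, from RefSeq on GRCm38.p6, are shown for the members that changed most or in opposite directions, with matches to 8 short motifs in capitals. RefSeq windows of 300 bases matched 5 of the 6 members, Muc13 with 2 starts; Muc3a had none. The motifs, searched on both strands, were the TATA box TATAAA (in 13.6% of all 32851 windows), the GC box GGGCGG (35.7%), the AP-1 site TGANTCA (7.81%), the STAT site TTCNNNGAA (8.3%), the CDX site TTTATNG (10.9%), the GATA site AGATAA (11.2%), the HNF1 core GTTAAT (7.1%) and a direct repeat (0.17%) of AGGTCA and AGGT with 1 base between them, of the kind bound by HNF4 and other nuclear receptors. The motifs were chosen after the windows had been read. For Muc3 and the second start of Muc13 the part that lies in an annotated exon is left out. The Muc3 window lies at the RefSeq start, directly upstream of Gm3054, which starts at base 137166070. The Muc3 model whose reads were counted starts at base 137149322, so the window is not the upstream sequence of that model.
Muc4, chr16:32735636-32735885, plus strand: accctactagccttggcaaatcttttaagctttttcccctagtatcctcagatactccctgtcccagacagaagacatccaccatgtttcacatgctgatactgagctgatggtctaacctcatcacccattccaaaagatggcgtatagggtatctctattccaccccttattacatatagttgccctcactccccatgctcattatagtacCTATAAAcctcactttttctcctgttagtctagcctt
Muc13 first start, chr16:33793787-33794036, plus strand: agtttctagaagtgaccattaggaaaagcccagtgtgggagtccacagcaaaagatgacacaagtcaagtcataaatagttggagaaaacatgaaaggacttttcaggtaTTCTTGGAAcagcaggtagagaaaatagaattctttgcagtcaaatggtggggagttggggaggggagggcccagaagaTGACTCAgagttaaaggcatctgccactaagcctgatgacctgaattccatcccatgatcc
Muc13 second start, chr16:33794239-33794366, plus strand: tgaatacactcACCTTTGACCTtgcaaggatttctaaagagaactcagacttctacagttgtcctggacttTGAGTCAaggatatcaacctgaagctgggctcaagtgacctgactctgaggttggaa
Muc3, chr5:137166071-137166296, minus strand: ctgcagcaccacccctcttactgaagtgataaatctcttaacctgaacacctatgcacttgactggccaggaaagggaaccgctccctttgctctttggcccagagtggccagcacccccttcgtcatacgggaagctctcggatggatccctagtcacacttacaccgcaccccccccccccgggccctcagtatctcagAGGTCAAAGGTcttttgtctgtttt
The direct repeat occurred in the windows of Muc3, on the strand of the gene, and of the second Muc13 start, on the other strand. Its part in the level of either gene was not tested. Muc4 had a TATA box, whose letters overlap its CDX match, and Muc13 had an AP-1 match at either start. A match is a description of the letters and not of a bound site.

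The genes on either side of the changed members did not share 1 direction with them. Next to Muc3, Trim56 had a log2 fold change of 0.020 ± 0.080. Gm3054, on the other side of Muc3, had 0.30 ± 0.11 (edgeR adjusted p = 0.0376), a call that DESeq2 did not make (adjusted p = 0.127). Tnk2, the nearest tested gene before Muc4, had 0.0027 ± 0.088 while Muc4 was 3.01-fold lower, and Smbd1 on its other side had 3 to 12 counts and was not called. Beside Muc13, Heg1 fell by 0.92 ± 0.26 on the log2 scale (edgeR adjusted p = 0.00822; 0.0556 without SGC-CBP30 replicate 2), and Itgb5 was not called at -0.19 ± 0.11, except when SGC-CBP30 replicate 1 was left out (adjusted p = 0.0378). Near Muc3a, Ache had 0.42 ± 0.21 (edgeR adjusted p = 0.145) and Gm40348 had -0.44 ± 0.59. Mtx1, on the other side of Muc1 from Trim46, had 0.015 ± 0.12.

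Profiles over the 4 libraries were compared among 9080 genes at or above a mean level of 3 log2 CPM, with clone-named genes (such as Gm and Rik) left out. The genes closest to each changed member were found by the Euclidean distance between centred log2 CPM values, a description over 4 points. For Muc13 they were Nsun4, Sec13 and Adamtsl5, at distances of 0.018 to 0.028 log2 CPM and log2 fold changes of -0.50, -0.52 and -0.49. For Muc3a they were Ces2g, Gas6 and Slco4a1, at 0.035 to 0.061. For Muc4 they were Cyp2c38, Ppargc1a and Wipf3, at 0.10 to 0.18, with log2 fold changes of -1.56, -1.61 and -1.67. For Muc3 they were Slf1, Leng1 and Atp6v1g1, at 0.011 to 0.029, of which Atp6v1g1 was called (edgeR adjusted p = 0.00764), but not when vehicle replicate 1 (adjusted p = 0.102) or SGC-CBP30 replicate 1 (adjusted p = 0.103) was left out. Leng1 was called under scaling by library totals (adjusted p = 0.0268) and when SGC-CBP30 replicate 2 was left out (adjusted p = 0.0131).

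**Figure D5:**
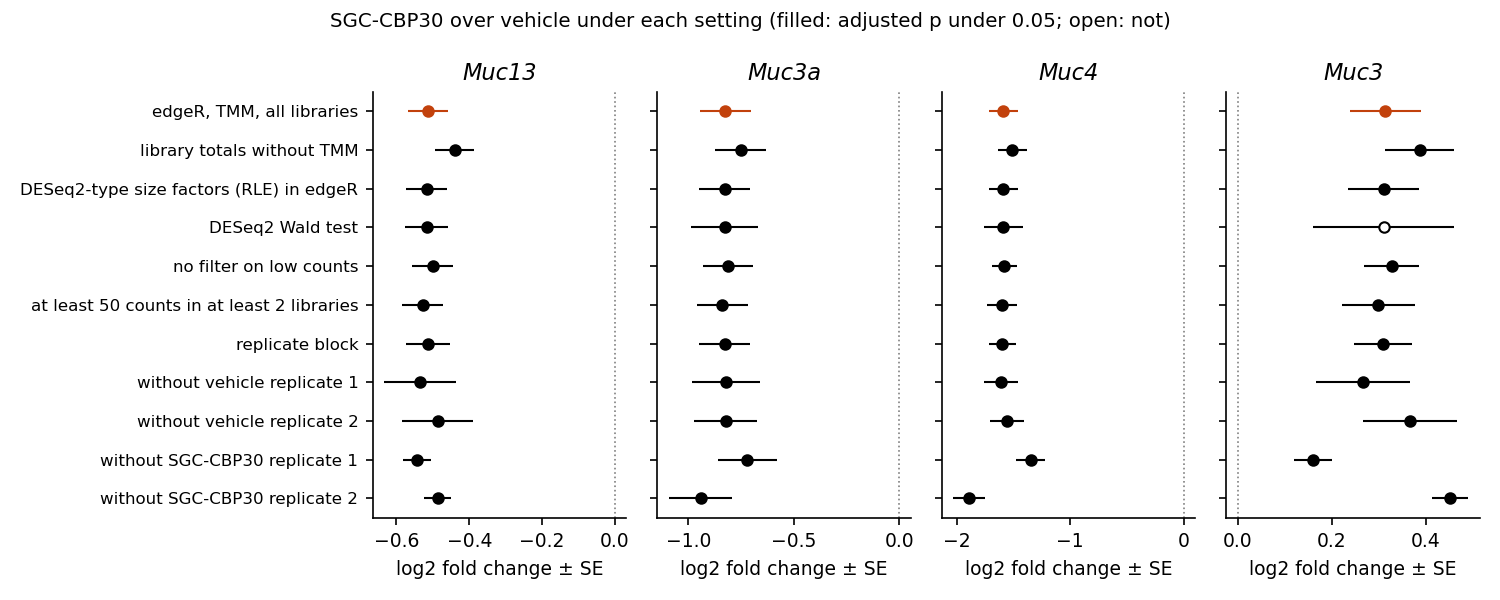
Log2 fold change with its SE (horizontal axes, each with its own range; the dotted line is 0) of the 4 tested mucins under edgeR with all libraries (top) and each other setting below it; filled points have an adjusted p under 0.05. Muc13, Muc3a and Muc4 are left of 0 and filled in every setting shown, and Muc3 is right of 0 with an open point under DESeq2.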

How the data were processed

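RNA sequencing gave 1 deposited table for 4 libraries. Per the file headers, the authors deposited raw counts per gene, not normalized, and these alone entered the tests. The deposited FPKM equal count divided by gene length and 1 scaled total per library (in units of 1000000 counts, 17.8, 16, 17.1 and 17.7); FPKM printed here were recomputed with TMM scaling. The table also has, per the file headers, group means as a signal of normalized counts (not used), gene length in bases, and the log2 fold change, p-value and adjusted p of an unnamed test. Tools listed in the submitters' processing notes, with no role given, are featureCounts 1.5.0-p3, HISAT2 2.0.5 and StringTie 1.3.3b, and the build listed is mm9, but 98.5% of 51476 shared gene identifiers had the coordinates of GENCODE M21 (GRCm38), which are printed. The table stops inside its last line; 51508 complete rows were read, 26144 with a count, and 27 symbols turned into dates were restored. A symbol with 2 rows (St6galnac2) was taken from the row with more counts.

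The test was that of edgeR 4.0.16 under R 4.3.3, on counts kept by filterByExpr, with TMM (factors 0.978, 0.972, 1.02 and 1.03), robust dispersions, quasi-likelihood F test, Benjamini-Hochberg adjustment over 14684 genes, SE as size over the square root of F. Replicates differed by more than counting noise (chi-square per degree of freedom 3.04 for vehicle and 6.64 for SGC-CBP30). Lists were described by counts and medians only. Alternatives were library totals, DESeq2's size factors, DESeq2 1.42.0, 2 other filters, each library left out and a replicate block. Members and lists were chosen with earlier results of these data known. Named genes were the members; in each list the called genes with a log2 fold change of at least 1 in size (at most 5), or otherwise the 2 of smallest p; the 3 nearest profiles of each called member; and the nearest tested genes on either side and overlapping genes. Others are said to be named after their values were seen.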

Additional observations from a re-analysis of the deposited data

How the results depend on the processing

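Muc13, Muc3a and Muc4 stayed lower and past the threshold under all 10 alternatives run. Leaving out each library in turn gave log2 fold changes of -0.544 to -0.486 for Muc13, -0.943 to -0.721 for Muc3a, -1.89 to -1.35 for Muc4 and 0.16 to 0.451 for Muc3. Muc3 stayed higher in all 10, and lost its call in DESeq2 alone (0.31, adjusted p = 0.128); its adjusted p without vehicle replicate 1 was 0.0456. Leaving out a library gave 2899 to 4557 called genes, 1235 to 2104 of them higher, and 11 to 25 higher genes in the 6 lists around the mucins together, against 23 with all libraries. DESeq2 called 1244 genes higher, and 15 in those lists. Library totals moved the mean vehicle level of Muc3a to 14.96 FPKM, of Muc4 to 3.57 FPKM and of Muc13 to 464 FPKM, beyond the small spread of the vehicle pair. Of 149 list medians under the alternatives 36 moved beyond the spread between replicates, and of 149 list counts 13 moved by over 1.5 times; the cause was not tested. The replicate numbers are not said to pair libraries, and same-numbered libraries did not deviate together (correlation -0.0244). The replicate block called 4703 genes and gave -0.513 for Muc13, -0.829 for Muc3a, -1.6 for Muc4 and 0.308 for Muc3, changing no call among them. Depth limits Muc1 and Muc20, which the filter left untested.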
